A study of Mus musculus with 36 samples.

Results

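The angiopoietin receptor Tek, its partner receptor Tie1, the vascular endothelial growth factor (VEGF) receptors Kdr and Flt1, and 6 further genes of quiet or growing blood vessels were followed in 4 organs, brain, heart, kidney and liver, of mice given bacterial lipopolysaccharide (LPS), alone or with genipin. The other 6 were the phosphatase gene Ptprb, the junction genes Cdh5 and Pcdh12, the secreted-factor genes Egfl7 and Esm1, and the Notch target Hey1. These 10 genes, of 12394 on the array, were taken by symbol, each through its probe with the highest mean intensity. Heart and kidney had 9 of the 10 measured, brain and liver 8 each, and 7 were measured in all 4 tissues. They were chosen with their differences between LPS and mock mice already known, so those differences are given here as a description: no p-value is given for them, and their counts stand beside the share of all genes with nothing read from them.

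The mice were female, of strain FVB, 6 to 8 weeks old, and all of them, mock mice included, carried a luciferase transgene, with no promoter named in the sources used here. Mock mice received no treatment. The LPS group received LPS at 4 mg/kg into the peritoneal cavity, and the LPS+genipin group received the same dose of LPS and then genipin, an iridoid from gardenia fruit, 10 min after it. Organs were collected after 4 h, and their RNA was hybridised to one-colour arrays, 3 arrays for each of 12 groups of tissue and treatment. The series describes 25 mice in 5 groups, with genipin at 1, 10 or 100 mg/kg. The sources used here do not say which of these doses the arrayed mice received. The comparisons ask how acute inflammation changed each organ and how genipin altered that change.

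Angiopoietin 1, released by cells around the vessel, activates the receptor tyrosine kinase Tek on endothelial cells and holds the vessel wall quiet and tight, while angiopoietin 2, stored and released by the endothelium itself, can block this signal. The phosphatase encoded by Ptprb removes phosphate from Tek and acts on the adhesion protein encoded by Cdh5, and Tie1 modulates Tek within the same complex. VEGF acts through the kinase Kdr, which drives endothelial growth and leak, while Flt1 binds VEGF tightly and signals weakly.

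Values are intensities on a linear scale as the authors deposited them, and since the sorted values of arrays were nearly identical within a tissue but not between tissues, levels were compared only among the 9 arrays of one tissue. Differences are log2 differences between group means ± SE over 3 arrays per group, after raising intensities below 263, the 5th percentile of all values, to that floor. Adjusted p-values come from limma and are adjusted over all genes measured in the tissue. Since the labels leave it unsaid whether each array stands for its own mouse, a p-value speaks only of the scatter among these arrays, which may be technical.

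Arrays of one group correlated at 0.985 to 0.998. The defining markers of each organ were bright in every group. None of the 7 cardiomyocyte markers in heart, 4 neuronal markers in brain or 6 hepatocyte markers in liver, which were at or near saturation, passed the test of LPS against mock, while of 8 tubule markers in kidney 1 was higher and 3 were lower. Beside this and the marker counts below stands the share of all genes that passed with LPS. In brain 16.4% were higher and 17.6% lower, and in heart 18.3% and 29.1%. In kidney 25.3% were higher and 39.2% lower, and in liver 29.3% and 37.2%. Markers of other tissues and cell types moved with the groups. The summed intensity of 5 skeletal muscle markers was 168577 to 178825 in the 3 mock brains, 51661 to 61608 in the LPS brains and 36963 to 43425 in the LPS+genipin brains. In heart, 3 fat markers summed to 12592 to 17858 in mock, 85686 to 97584 with LPS and 17222 to 24770.2 with LPS+genipin. The 3 atrial markers measured in heart summed to 5719 to 5985 in mock, 146929 to 155139.9 with LPS and 4304 to 4416 with LPS+genipin. In kidney, 6 fibroblast markers summed to 31652 to 32664 in mock, 29094 to 29536 with LPS and 50235 to 50858 with LPS+genipin. The 4 fat markers measured in kidney summed to 30497 to 32183 in mock, 38989 to 43032 with LPS and 57241 to 63977 with LPS+genipin. In the LPS brains Ttr, a gene of liver and choroid plexus, stood at least 22-fold below mock. The brain sums of 3 hepatocyte markers, Ttr among them, were 65354 to 65962 in mock and 3908 to 4946 with LPS. With LPS+genipin they were 67200 to 67576, no longer below mock. By contrast, 3 other choroid plexus markers summed to 1183 to 1224 in mock, 1485 to 1636 with LPS and 2739 to 3123 with LPS+genipin. Of these, 1 was called higher and 0 lower with LPS. All 4 macrophage markers measured in brain fell with LPS, with sums of 13991 to 15396 in mock, 9144 to 11469 with LPS and 14441 to 15497 with LPS+genipin. Macrophage sums were also lowest with LPS in heart (11518 to 12634, against 16401 to 17720.4 in mock and 15616 to 17238 with LPS+genipin, 1 of 5 called higher and 2 lower) and in liver (9464 to 9963, against 12026 to 12905 and 12509.9 to 13402, 1 of 5 called higher and 3 lower). In kidney they were 9348 to 9751 in mock, 9999 to 10224 with LPS and 13046 to 13684 with LPS+genipin, and 3 of 4 were called higher and 1 lower with LPS. Of the neutrophil markers measured, all 4 in heart, 2 in kidney and 3 in liver rose with LPS, while in brain 2 of 5 rose and 1 fell. In liver the 3 summed to 4112 to 4374 in mock, 87965 to 92270.5 with LPS and 61776 to 66492 with LPS+genipin. The 3 arrays of a group shared these levels, so no result could be given without them, and their part in the results was not tested.

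In brain, 7 of the 8 measured genes had a lower mean with LPS than in mock. Called means an adjusted p under 0.05. In brain 4 were called lower and 1, Cdh5, higher, where 33.9% of all genes were called, 17.6% lower and 16.4% higher. In heart 8 of 9 were called lower and none higher, against 47.4% of all genes, 29.1% lower and 18.3% higher. In kidney 8 were called lower and 1 higher, against 64.5% of all genes, 39.2% lower and 25.3% higher. In liver 5 of 8 were called lower and 2 higher, against 66.5% of all genes, 37.2% lower and 29.3% higher. Since the genes were chosen on this comparison, nothing is read from these counts. Their median log2 difference was -1.86 in heart, -0.66 in kidney, -1.09 in liver and -0.32 in brain, while the median of all measured genes lay between -0.09 and 0.00. Fewer endothelial cells and less RNA per cell cannot be told apart in whole tissue.

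**Figure D1:**
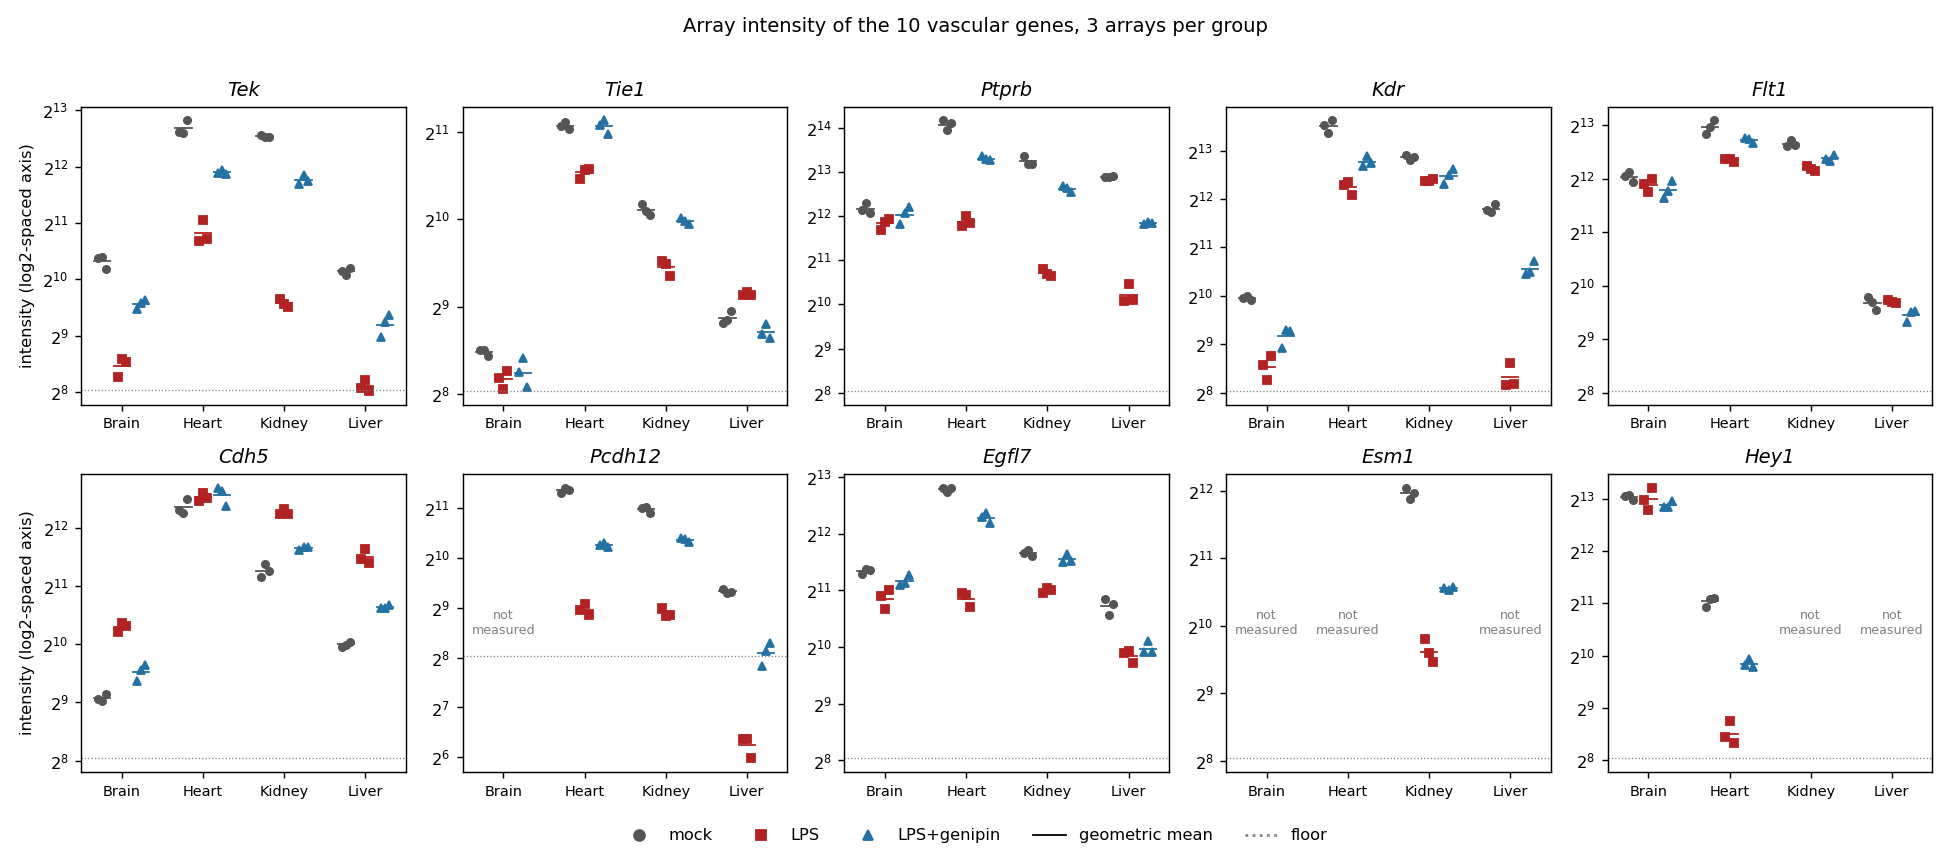
Array intensity of each of the 10 genes in brain, heart, kidney and liver, on a log2-spaced axis, with 1 point per array, a line at each group's geometric mean and a dotted line at the floor of 263. Tek, Ptprb and Kdr lie lowest in the LPS arrays wherever the LPS and mock arrays are far apart, with LPS+genipin between them, and Cdh5 runs the other way in brain, kidney and liver.

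Tek was low in every LPS array of every tissue. In kidney, the mock arrays read 6049, 5868 and 5873, the LPS arrays 808, 752 and 728, and the LPS+genipin arrays 3292, 3688 and 3420.5. The LPS group thus stood 7.78-fold below mock (-2.96 ± 0.06), and the LPS+genipin arrays lay between the other groups. In heart, Tek read 6279.7, 6180.1 and 7226 in mock, 1641, 2119.8 and 1689.7 with LPS, and 3794, 3921 and 3719 with LPS+genipin. In brain the arrays read 1331, 1349 and 1169 in mock, 308, 387 and 369 with LPS, and 707, 769 and 794 with LPS+genipin. The groups were fully separate in these 3 tissues, in the order mock, LPS+genipin, LPS. In liver, Tek read 1131, 1083 and 1175 in mock, 269, 298 and 259.7 with LPS, and 502, 608 and 659.6 with LPS+genipin, so that the LPS livers lay at the edge of what the arrays measured and 1 of them was below the floor.

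The differences of Tek from mock with LPS were -1.86 ± 0.10 in brain, -1.86 ± 0.11 in heart and -2.03 ± 0.10 in liver. With LPS+genipin they were -0.78 ± 0.11 in heart, -0.78 ± 0.06 in kidney, -0.95 ± 0.10 in liver and -0.76 ± 0.10 in brain. Both sets share the mock arrays. Against LPS alone, Tek rose with genipin by 2.18 ± 0.06 in kidney (limma adjusted p = 2.07e-07), 1.10 ± 0.10 in brain (0.000205), 1.09 ± 0.10 in liver (7.89e-05) and 1.08 ± 0.11 in heart (0.000122). This comparison was not the one the genes were chosen on, but it uses the same LPS arrays. The step from LPS to LPS+genipin was 2.14-fold in brain, 2.11-fold in heart, 2.12-fold in liver and 4.54-fold in kidney, the tissue where LPS and mock lay farthest apart. In all 4 tissues every LPS+genipin array stayed below every mock array.

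Tie1, which shapes signalling through Tek, moved far less. In heart it read 2138, 2206 and 2100.3 in mock, 1409.6, 1517 and 1529.7 with LPS, and 2157, 2242 and 2019 with LPS+genipin. In kidney it read 1152, 1091 and 1059 in mock, 738, 717 and 655 with LPS, and 1035, 1008 and 988 with LPS+genipin. The LPS arrays were the low ones in both organs. The LPS+genipin hearts overlapped mock, and the LPS+genipin kidneys fell just short of it.

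Liver ran the other way for Tie1. The arrays read 451, 460.4 and 495 in mock, 561, 577 and 561 with LPS, and 412, 446 and 399 with LPS+genipin, so the LPS livers were the high ones and the LPS+genipin livers the low ones. The differences with LPS were -0.53 ± 0.06 in heart, -0.65 ± 0.05 in kidney and 0.27 ± 0.06 in liver. Against LPS, Tie1 rose with genipin by 0.53 ± 0.06 in heart (limma adjusted p = 0.000295) and 0.52 ± 0.05 in kidney (0.000126) and fell by 0.44 ± 0.06 in liver (0.000498). In brain Tie1 lay close to the floor, with mock arrays at 346 to 363, LPS arrays at 266 to 307 and LPS+genipin arrays at 272 to 339.9. Its LPS difference there was -0.31 ± 0.09, which shrank to -0.08 with a floor at the 10th percentile, and its genipin difference was 0.08 ± 0.09 (adjusted p = 0.533).

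Among the ligands, which were not part of the 10, Angpt2 moved opposite to Tek with LPS where it was measured. In brain it read 781, 820.2 and 753 in mock, 2841, 2812 and 3150.4 with LPS, and 1484, 1444 and 1691 with LPS+genipin. It rose with LPS by 1.90 ± 0.08 in brain (limma adjusted p = 1.51e-06), 1.15 ± 0.10 in heart (3.82e-05) and 1.40 ± 0.09 in liver (2.90e-06), and it was not measured in kidney. Against LPS, genipin lowered it by -0.93 ± 0.08 in brain (0.000124) and -1.71 ± 0.10 in heart (6.50e-06), where the LPS+genipin arrays at 665 to 709 lay below mock at 897 to 1116. In liver it stood at 1307 to 1443 with LPS+genipin and 1265 to 1525 with LPS, a difference of -0.02 ± 0.09 (adjusted p = 0.895), so in liver Tek rose with genipin while Angpt2 stood as high as with LPS alone. Angpt1, the activating ligand, was not measured in liver. It differed with LPS by -0.06 ± 0.05 in brain (adjusted p = 0.412) and -0.22 ± 0.10 in heart (0.123) and fell by -0.43 ± 0.08 in kidney (0.00195). Against LPS it fell with genipin, by -0.45 ± 0.10 in heart (0.00944), -0.26 ± 0.08 in kidney (0.0251) and -0.23 ± 0.05 in brain (0.0161). The kidney call of Angpt1 was lost without LPS replicate 2 (adjusted p = 0.0569) or 3 (0.0794) and without LPS+genipin replicate 1 (0.0789) or 2 (0.0811), and the brain call when only the LPS and LPS+genipin arrays were fitted (0.0612).

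**Figure D2:**
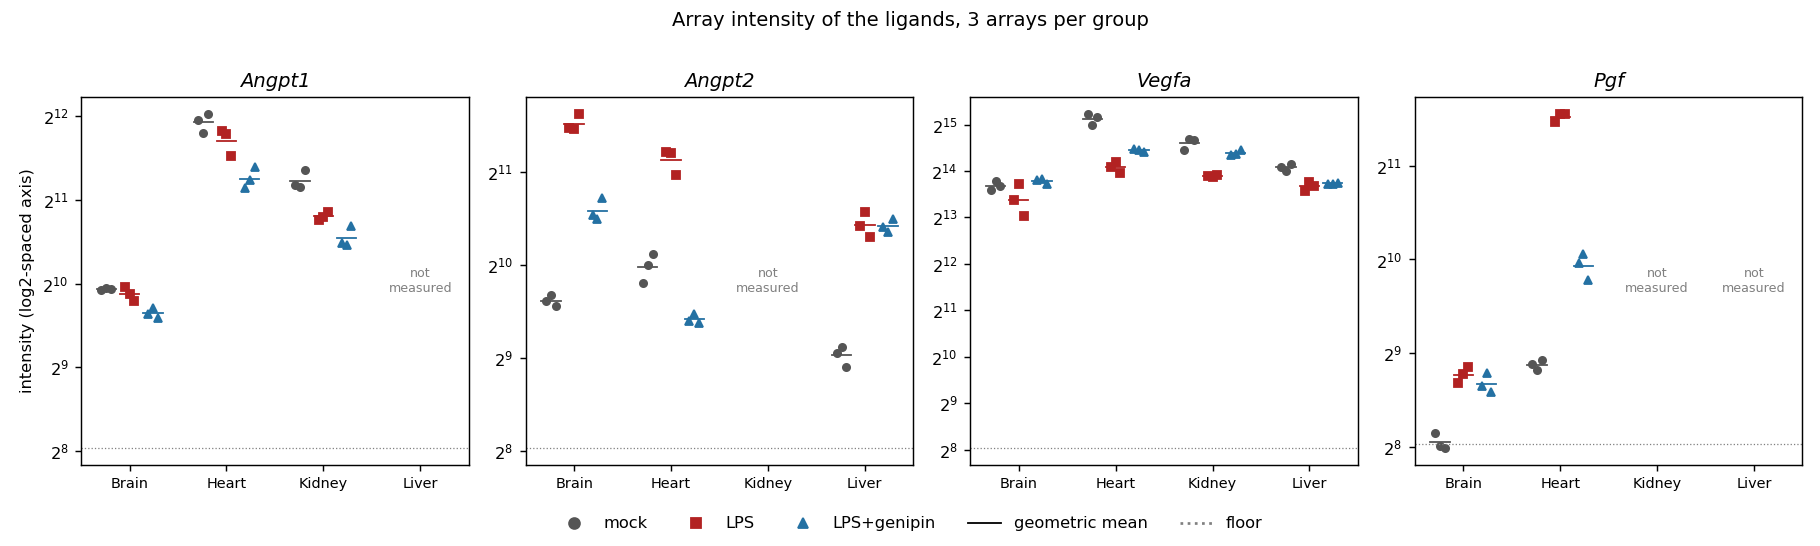
Array intensity of the ligand genes Angpt1, Angpt2, Vegfa and Pgf by tissue and treatment on a log2-spaced axis, with 1 point per array, a line at the geometric mean and a dotted line at the floor. Angpt2 is highest with LPS in brain and heart and equally high with LPS and LPS+genipin in liver, and Vegfa is lowest with LPS in heart and kidney.

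Ptprb, the phosphatase that opposes Tek, was low in the LPS arrays of heart, kidney and liver and barely so in brain. In heart it read 18456, 15815 and 17641 in mock, 3525, 4127 and 3654 with LPS, and 10461, 10015 and 9921 with LPS+genipin. In kidney it read 10582, 9259.8 and 9259.8 in mock, 1789.9, 1663 and 1599 with LPS, and 6553, 6395 and 6030.4 with LPS+genipin. In liver the mock arrays read 7584, 7568 and 7751, the LPS arrays 1075, 1404 and 1099.5, and the LPS+genipin arrays 3613, 3734 and 3662. The 3 groups did not overlap in any of these organs, and the LPS arrays were lowest by a wide margin. The differences with LPS were -2.20 ± 0.08 in heart, -2.52 ± 0.07 in kidney and -2.69 ± 0.10 in liver, or 4.59-fold, 5.76-fold and 6.45-fold lower. Against LPS, Ptprb rose with genipin by 1.43 ± 0.08 in heart (limma adjusted p = 6.34e-06), 1.91 ± 0.07 in kidney (7.52e-07) and 1.63 ± 0.10 in liver (7.48e-06). In brain, mock read 4545, 5042 and 4272, LPS 3306, 3758 and 3943, and LPS+genipin 3601, 4332 and 4701. The brain difference with LPS was -0.33 ± 0.11, and the genipin difference was 0.19 ± 0.11 (adjusted p = 0.239), with LPS+genipin arrays overlapping both other groups. Tek and its phosphatase were thus both low with LPS in 3 organs, and in brain Tek was low with little difference in Ptprb.

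Kdr, the signalling VEGF receptor, had its largest difference in liver. There it read 3509, 3404 and 3814 in mock, 287, 392 and 289 with LPS, and 1399.8, 1440.0 and 1684 with LPS+genipin. The LPS livers were 11.2-fold below mock (-3.48 ± 0.13), the deepest value among the 10 genes in any tissue, and the LPS arrays lay close to the floor. The heart arrays read 11838, 10501 and 12625 in mock, 5018, 5219.8 and 4350.1 with LPS, and 6532, 7584 and 6824 with LPS+genipin. In brain it read 989, 1024 and 972 in mock, 379, 307 and 434 with LPS, and 486, 630.0 and 624 with LPS+genipin. The groups were separate in these 3 organs, again with LPS lowest. In kidney, the mock arrays at 7149 to 7735 lay above both the LPS arrays at 5302 to 5476 and the LPS+genipin arrays at 5092 to 6269, and the latter pair overlapped.

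The LPS differences of Kdr were -1.43 ± 0.14 in brain, -1.26 ± 0.10 in heart and -0.48 ± 0.07 in kidney. Against LPS, Kdr rose with genipin by 2.23 ± 0.13 in liver (limma adjusted p = 7.54e-06), 0.64 ± 0.14 in brain (0.0117) and 0.52 ± 0.10 in heart (0.00394). In kidney the difference was 0.08 ± 0.07 (adjusted p = 0.358), which reached 0.16 with adjusted p = 0.0421 without LPS+genipin replicate 1. Of the 4 organs, kidney had the largest genipin difference of Tek and the smallest of Kdr. In every tissue the LPS+genipin arrays of Kdr stayed below mock, by -1.25 ± 0.13 in liver, -0.79 ± 0.14 in brain, -0.74 ± 0.10 in heart and -0.39 ± 0.07 in kidney.

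Flt1, the decoy-like VEGF receptor, was lower with LPS in heart and kidney, by less than Kdr in heart and by about as much in kidney. In heart it read 7263, 8008 and 8716 in mock, 5250.4, 5312 and 5084 with LPS, and 6895, 6834 and 6465 with LPS+genipin. In kidney, mock arrays lay at 6272 to 6722, LPS arrays at 4539 to 4816 and LPS+genipin arrays at 5170.2 to 5588. The LPS arrays were again lowest in both organs, with differences of -0.61 ± 0.07 and -0.46 ± 0.05. In liver, where Kdr was 11.2-fold lower, Flt1 read 889.8, 835 and 749 in mock against 856, 831 and 821 with LPS, a difference of 0.02 ± 0.08 with overlapping arrays. Brain gave -0.15 ± 0.10, also with overlap. Against LPS, Flt1 rose with genipin by 0.37 ± 0.07 in heart (limma adjusted p = 0.00461) and 0.19 ± 0.05 in kidney (0.00890). In liver it fell by -0.25 ± 0.08 (0.0261), and leaving out LPS replicate 1, LPS replicate 2 or LPS+genipin replicate 1 raised the adjusted p to 0.0675, 0.0562 and 0.0795. In brain the difference was -0.09 ± 0.10 (0.514).

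Vegfa, the main ligand of Kdr, fell with LPS by -1.04 ± 0.08 in heart (limma adjusted p = 1.97e-05), -0.72 ± 0.06 in kidney (3.31e-05) and -0.41 ± 0.06 in liver (0.000540). In brain it read 10565, 13479 and 8323 with LPS against 12392 to 14063 in mock, a difference of -0.31 ± 0.15 (adjusted p = 0.153) that became -0.49 with adjusted p = 0.0139 without LPS replicate 2, the highest of the 3. Against LPS it rose with genipin by 0.36 ± 0.08 in heart (0.00745) and 0.50 ± 0.06 in kidney (0.000405), with 0.06 ± 0.06 in liver (0.421) and 0.42 ± 0.15 in brain (0.0741). The brain value passed with adjusted p = 0.00732 without the same LPS array, with adjusted p = 0.0385 under an intensity-trended robust prior, and, just under the threshold, with no floor (0.049992) and with the replicate number as a block (0.0499). Pgf, a ligand of Flt1, moved the other way. In heart it read 473, 453 and 487 in mock, 2819, 2992 and 2999 with LPS, and 999, 1065 and 879 with LPS+genipin, a rise with LPS of 2.64 ± 0.08 (adjusted p = 7.29e-08) and a fall with genipin of -1.59 ± 0.08 (2.93e-06). In brain Pgf rose with LPS by 0.69 ± 0.07 (0.000295) and differed with genipin by -0.09 ± 0.07 (0.354), but the mock brains read 285, 258 and 254, and the latter pair were raised to the floor, which makes the difference smaller. The LPS hearts are those with high atrial and fat markers, whose part in this value was not tested.

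Cdh5, which encodes the cadherin that seals endothelial junctions, was called higher with LPS in brain, kidney and liver. Among the 10, the only other rise called with LPS was that of Tie1 in liver. In liver it read 993, 1015 and 1051 in mock, 2821, 3187 and 2670.0 with LPS, and 1569, 1564 and 1628 with LPS+genipin. In brain it read 530.0, 520.4 and 566 in mock, 1181, 1322 and 1270.4 with LPS, and 663, 751 and 797 with LPS+genipin. In kidney it read 2263, 2644 and 2443 in mock, 4821, 5091 and 4832 with LPS, and 3143, 3247 and 3233 with LPS+genipin. All LPS arrays of these organs lay above all others, and the LPS+genipin arrays stood between LPS and mock without overlap. The LPS differences were 1.50 ± 0.07 in liver, 1.22 ± 0.08 in brain and 1.01 ± 0.06 in kidney, or 2.83-fold, 2.33-fold and 2.01-fold higher. Against LPS, Cdh5 fell with genipin by -0.86 ± 0.07 in liver (limma adjusted p = 3.22e-05), -0.77 ± 0.08 in brain (0.000361) and -0.62 ± 0.06 in kidney (7.47e-05). In heart the mock arrays read 5043, 4894 and 5777, LPS 5589, 6211 and 5799, and LPS+genipin 6579, 6345 and 5312. All 3 heart groups overlapped, with 0.17 ± 0.10 for LPS against mock and 0.05 ± 0.10 for genipin against LPS (adjusted p = 0.746).

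Pcdh12, another endothelial cadherin, of the protocadherin group, was low with LPS in each organ where its bright probe was measured. The heart arrays read 2525, 2713 and 2640.1 in mock, 494, 539 and 463 with LPS, and 1227, 1254 and 1182 with LPS+genipin. In kidney it read 2059, 2069.8 and 1920.5 in mock, 512, 456 and 464 with LPS, and 1349, 1331 and 1282 with LPS+genipin. The LPS arrays stood lowest and no group overlapped another, with LPS differences of -2.40 ± 0.07 and -2.08 ± 0.05. Pcdh12 rose with genipin against LPS by 1.29 ± 0.07 in heart (limma adjusted p = 4.02e-06) and 1.47 ± 0.05 in kidney (9.14e-07). In liver it read 664, 628 and 639.5 in mock, 82.6, 82.6 and 63.1 with LPS, and 228, 282 and 313 with LPS+genipin. All 3 LPS livers were below the floor, so Pcdh12 was at least 2.45-fold lower than in mock, and its genipin difference of at least 0.12 did not pass (0.162) at this floor, though it did without LPS+genipin replicate 1 (0.18, adjusted p = 0.0458). Without a floor the liver differences were -3.09 for LPS and 1.85 for genipin (adjusted p = 1.45e-05).

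The array carries a second, dimmer probe for Pcdh12, which did not show this fall with LPS. In heart it read 592, 502 and 726 in mock, 546, 595 and 737 with LPS, and 822, 655 and 534 with LPS+genipin, with all groups overlapping. In kidney it read 260.3, 295 and 303 in mock and 294, 309 and 392 with LPS. Averaging both probes cut the LPS difference to -1.17 in heart and -0.94 in kidney. Which of the 2 probes reports the transcript was not tested, and the Pcdh12 values rest on the brighter one.

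Egfl7, which encodes a factor that endothelial cells secrete into their matrix, had its largest difference in heart. There it read 7168, 6857 and 7195 in mock, 1976, 1928 and 1675 with LPS, and 5024, 5282 and 4691 with LPS+genipin. In liver it read 1854, 1519 and 1738 in mock, 949, 975 and 846 with LPS, and 959, 1104 and 963 with LPS+genipin. Heart showed 3 separate levels, whereas in liver both treated groups lay together below mock. In kidney, mock arrays were at 3136 to 3351, LPS arrays at 1982 to 2109 and LPS+genipin arrays at 2916 to 3209.5. The LPS differences were -1.93 ± 0.08 in heart, -0.88 ± 0.10 in liver, -0.66 ± 0.05 in kidney and -0.49 ± 0.09 in brain. Against LPS, Egfl7 rose with genipin by 1.43 ± 0.08 in heart (limma adjusted p = 4.75e-06) and 0.56 ± 0.05 in kidney (5.97e-05), and by 0.32 ± 0.09 in brain (0.0302). In liver the difference was 0.13 ± 0.10 (0.298). The brain call was lost when only the LPS and LPS+genipin arrays were fitted (0.0871) and without mock replicate 3 (0.0514) or LPS+genipin replicate 1 (0.0503), 2 (0.0662) or 3 (0.0831).

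Endothelial genes are known to be driven by factors of the ETS family, whose core motif is GGAA. Promoter windows of Tie1 and Egfl7 are shown because, of the 8 windows available, only these overlap no annotated gene. They are also the windows with the most matches, so they do not stand for the rest. The windows are the 250 bases before the start site in RefSeq, build GRCm38.p6, read 5′ to 3′ on the gene's strand, with GGAA on either strand (TTCC on the other) in capitals. Tie1 lies at chr4:118489850-118490099 on the minus strand and the first start site of Egfl7 at chr2:26580833-26581082 on the plus strand.
Tie1: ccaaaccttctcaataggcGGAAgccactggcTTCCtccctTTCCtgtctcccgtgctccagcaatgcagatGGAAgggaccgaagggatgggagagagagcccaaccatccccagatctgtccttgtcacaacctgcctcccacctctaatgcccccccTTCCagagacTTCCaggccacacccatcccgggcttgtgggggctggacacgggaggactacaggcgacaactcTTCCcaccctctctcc
Egfl7: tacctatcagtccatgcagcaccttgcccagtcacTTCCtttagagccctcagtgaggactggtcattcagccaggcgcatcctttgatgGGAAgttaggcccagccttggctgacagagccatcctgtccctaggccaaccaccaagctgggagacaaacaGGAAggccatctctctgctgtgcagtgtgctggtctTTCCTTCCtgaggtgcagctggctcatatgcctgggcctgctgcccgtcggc
Tie1 holds 7 matches and this Egfl7 window 5, with 3 and 1 at the other 2 Egfl7 start sites, where the median window of 32851 held 3 and 93.4% held at least 1. The table listed 6 of the 10 genes. The windows of Kdr and Flt1 held 4 matches each, Esm1 3 and Tek 2. The forkhead motif GTAAACA, held by 3.17% of all windows, was in none of the 8 windows of the 6 genes, which says only that these letters are not there.

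Esm1, a secreted proteoglycan of sprouting endothelium, was measured in kidney alone. It read 4217, 3753 and 3993 in mock, 892, 772 and 703 with LPS, and 1512, 1469.6 and 1519.6 with LPS+genipin. The LPS difference was -2.34 ± 0.08, or 5.07-fold lower. Genipin raised Esm1 against LPS by 0.93 ± 0.08 (limma adjusted p = 6.41e-05), and it remained -1.41 ± 0.08 from mock, farther than any other of the 10 genes in kidney.

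Hey1, a transcription repressor switched on by Notch, was measured in brain and heart. In heart it read 1954, 2178 and 2189 in mock, 347, 431 and 321 with LPS, and 899, 983 and 881 with LPS+genipin. The groups did not overlap. The LPS difference of -2.53 ± 0.11, or 5.79-fold lower, was the deepest of the 9 genes measured in heart, and Hey1 rose with genipin by 1.34 ± 0.11 (limma adjusted p = 4.86e-05). In brain it read 8505, 8625 and 8000.5 in mock, 8008, 7015 and 9461 with LPS, and 7334, 7336 and 7937 with LPS+genipin. The brain differences were -0.05 ± 0.10 with LPS and -0.11 ± 0.10 with genipin against LPS (0.473).

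**Figure D3:**
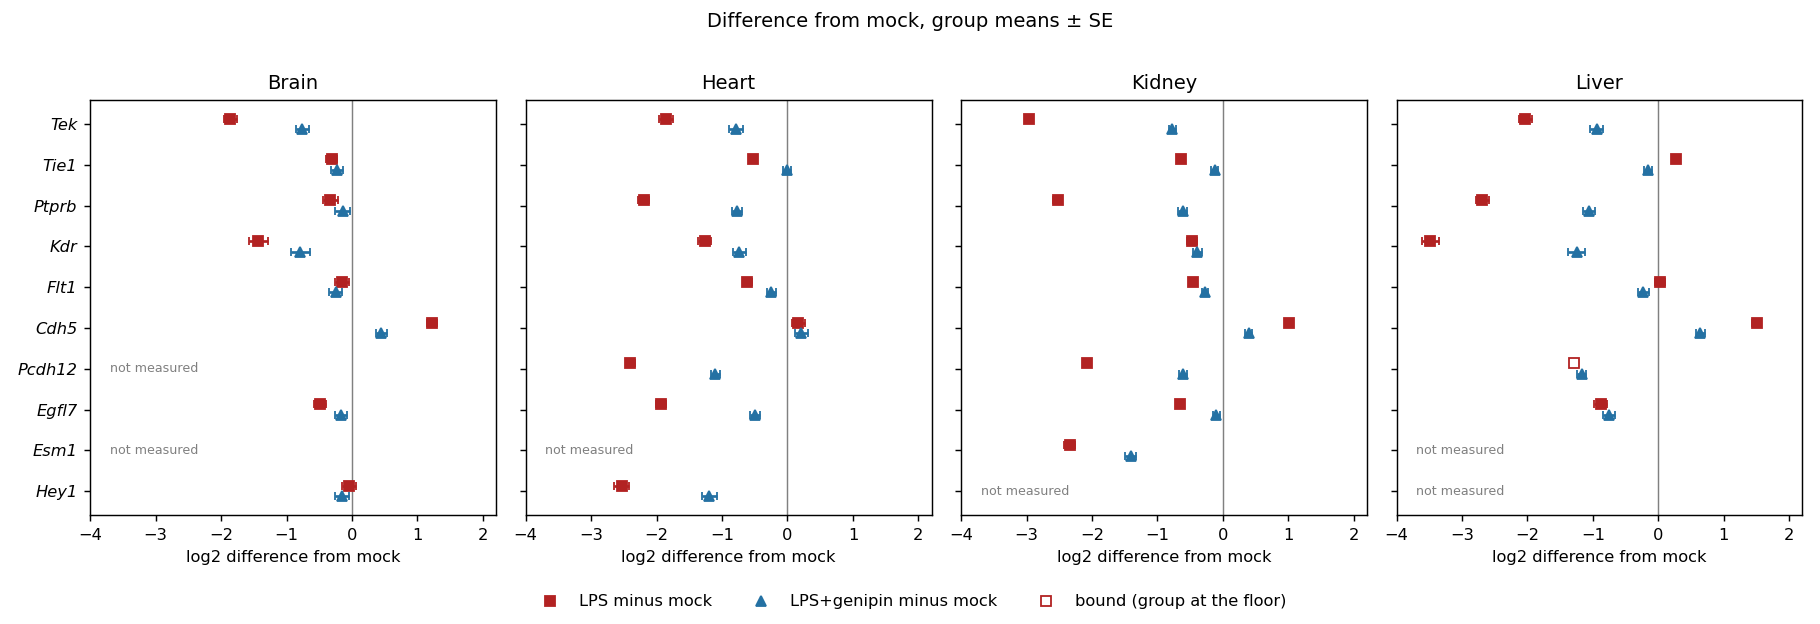
Log2 difference from mock of each of the 10 genes with LPS (squares) and LPS+genipin (triangles) in the 4 tissues, group means ± SE over 3 arrays per group, with the liver value of Pcdh12 under LPS an open square because it is a bound. Tek lies between -1.86 and -2.96 with LPS and between -0.76 and -0.95 with LPS+genipin, while Cdh5 lies to the right of 0 in all 4 tissues.

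With genipin against LPS alone, 3 of the 8 genes measured in brain rose and 1 fell, where 30.2% of all genes were called, 16.4% higher and 13.8% lower. In heart 8 of 9 rose and none fell, against 42.1% of all genes, 22.1% higher and 19.9% lower. In kidney 7 of 9 rose and 1 fell, against 54.9% of all genes, 32.3% higher and 22.6% lower. In liver 3 of 8 rose and 3 fell, against 54% of all genes, 29.6% higher and 24.4% lower. Of the genes that rose, Tek did so in 4 tissues, Ptprb, Kdr and Egfl7 in 3 each, and Tie1, Flt1 and Pcdh12 in 2 each. The median differences were 1.08 in heart, 0.56 in kidney, 0.12 in liver and 0.14 in brain, beside 0.01 to 0.04 over all genes. These counts use the LPS arrays that also entered the choice of the genes. With both Pcdh12 probes averaged, the heart median was 0.69, and without the floor, which holds Pcdh12 at its bound, the liver median was 0.61.

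The size of the genipin difference varied by organ. An F test over all 36 arrays, asking whether LPS+genipin against LPS was equal in the 4 tissues, passed for all 7 genes measured in each, where 74.5% of 6705 genes passed. The limma adjusted p was 4.63e-11 for Kdr, which ranged from 0.08 in kidney to 2.23 in liver, 3.92e-11 for Ptprb, from 0.19 in brain to 1.91 in kidney, and 3.72e-08 for Tek, from 1.08 in heart to 2.18 in kidney. It was 6.83e-10 for Egfl7, 1.70e-09 for Tie1, 2.58e-07 for Cdh5 and 9.30e-05 for Flt1. The F test uses the same LPS arrays as the choice of the genes, so the same limit applies to it.

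**Figure D4:**
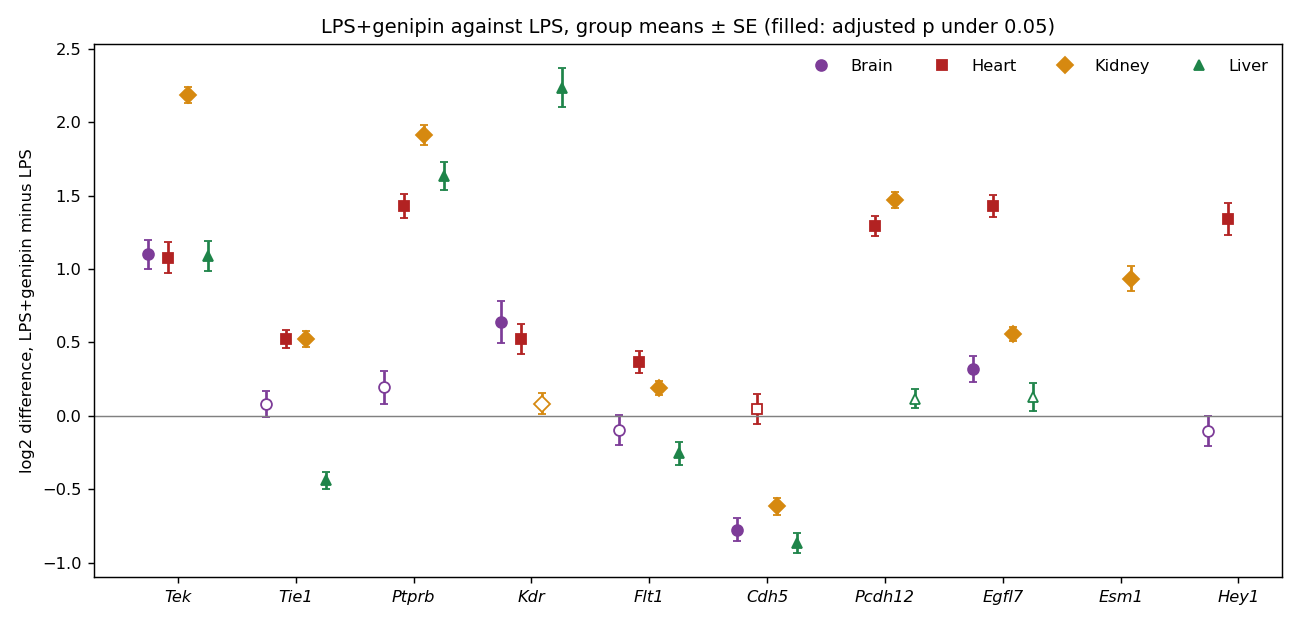
Log2 difference of LPS+genipin against LPS for each of the 10 genes, with 1 marker per tissue, group means ± SE over 3 arrays per group, filled where the adjusted p is under 0.05. Tek is the gene with filled markers above 0 in all 4 tissues, Cdh5 is below 0 in brain, kidney and liver, and Tie1 and Flt1 are above 0 in heart and kidney and below it in liver.

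Other genes of these pathways, from a list of 76, were counted in the same fits. With LPS, 12 rose and 31 fell of 57 measured in heart, 23 and 22 of 55 in kidney, 22 and 12 of 45 in liver and 9 and 16 of 51 in brain. Of all genes, 18.3% rose and 29.1% fell in heart, 25.3% and 39.2% in kidney, 29.3% and 37.2% in liver, and 16.4% and 17.6% in brain. Of 10 Notch pathway genes measured in heart, 8 fell and 1 rose with LPS, with a median of -0.80 beside -0.06 for all genes. In heart the Notch ligand Jag2 read 1318, 1379 and 1400.2 in mock, 397, 396 and 303 with LPS, and 1038, 1067 and 1054 with LPS+genipin. This was a fall with LPS of -1.91 ± 0.10 (limma adjusted p = 2.38e-06) and a rise with genipin of 1.54 ± 0.10 (1.52e-05). The Notch feedback gene Nrarp fell with LPS in heart by -1.86 ± 0.09 (1.13e-06) and Heyl, a relative of Hey1, by -1.66 ± 0.16 (7.93e-05). Of the 10 in heart, 7 rose and 1 fell with genipin against LPS, where 22.1% of all genes rose and 19.9% fell. In kidney 5 of 6 Notch genes fell with LPS, where 39.2% of all genes fell. In brain 2 of 7 fell and in liver 2 of 4, where 17.6% and 37.2% of all genes fell, while in liver the ligand Jag1 rose by 1.46 ± 0.07 (9.42e-07).

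Endothelial transcription factors moved both ways. Among SOX factors of arteries and lymphatics, 2 fell with LPS, Sox18 by -1.43 ± 0.04 in brain (limma adjusted p = 4.14e-07) and -1.26 ± 0.07 in heart (3.66e-06), and Sox17 by -1.42 ± 0.11 in brain (5.54e-05). Nr2f2, a factor of venous identity, fell by -1.37 ± 0.21 in brain (0.00194). The flow-responsive factor Klf2 rose in liver, from 1331, 1293 and 1403 to 5090.1, 5307 and 4679 (1.90 ± 0.06, 8.45e-08), and genipin brought it to 1768, 1754 and 1868 (-1.48 ± 0.06, 1.29e-06). Klf6 rose with LPS by 2.75 ± 0.08 in kidney (5.20e-08) and 2.31 ± 0.08 in liver (9.25e-08), and Ets2 by 2.23 ± 0.04 in liver (6.55e-09). Sox18 rose with genipin in heart by 1.13 ± 0.07 (1.24e-05), and Tal1, a blood and endothelial factor, rose in brain by 1.97 ± 0.17 (0.000144), from 275, 283 and 198 with LPS to 1168, 845 and 1242, above its mock values of 339 to 479.6, with 1 LPS array below the floor. In kidney Klf6 fell with genipin by -1.62 ± 0.08 (3.22e-06), whereas in liver it rose further, from 3192, 3069 and 2744 with LPS to 5503, 5046 and 4916 (0.78 ± 0.08, 9.07e-05).

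Receptors, junction genes and signalling genes moved both ways. In kidney, where Tek and Ptprb were low, the guidance receptor Robo4 rose by 1.43 ± 0.13 (limma adjusted p = 2.88e-05), the sphingolipid receptor S1pr1 by 1.49 ± 0.15 (5.26e-05) and Rasip1, which steadies endothelial junctions, by 1.83 ± 0.07 (1.71e-07), while the TGF-beta co-receptor Eng fell by -1.17 ± 0.07 (4.20e-06). The NF-kB brake Tnfaip3 rose by 4.29 ± 0.04 in kidney (1.67e-10), 4.19 ± 0.05 in liver (1.90e-09) and 2.01 ± 0.08 in brain (1.34e-06), and genipin lowered it in brain by -1.65 ± 0.08 (9.64e-06). The protease gene Adamts1 rose in brain by 2.10 ± 0.08 (1.12e-06) and fell with genipin in heart by -1.17 ± 0.09 (4.18e-05). Its brain arrays were also lower with LPS+genipin (6911 to 7114) than with LPS (12308 to 14915). Its heart arrays were also higher with LPS (10426 to 12579) than in mock (5806 to 6265). In liver Adamts1 read 961 to 1068 in mock, 1440 to 1782 with LPS and 2494 to 2657 with LPS+genipin. The tight-junction gene F11r fell in liver by -1.45 ± 0.06 (4.46e-07). With genipin in kidney, Apln, the apelin ligand, fell by -1.44 ± 0.09 (8.66e-06), Vegfd rose by 1.28 ± 0.08 (1.02e-05) and Fli1 fell by -1.12 ± 0.24 (0.00486). In liver, genipin lowered Fli1 by -1.93 ± 0.32 (0.00157) and the catenin genes Ctnnd1 and Jup by -1.67 ± 0.28 (0.00157) and -1.59 ± 0.23 (0.000814). Of the other pathway genes, 24 rose and 9 fell with genipin in heart, 18 and 16 in kidney, 10 and 13 in liver and 17 and 11 in brain. Of all genes, 22.1% rose and 19.9% fell with genipin in heart, and 32.3% and 22.6% in kidney. In liver these shares were 29.6% and 24.4%, and in brain 16.4% and 13.8%.

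Endothelial markers outside the 10 genes moved both ways with LPS. Of a list of 25, which shares Sox17, Sox18, Rasip1, Robo4 and Eng with the genes above, 18 were measured in heart and in kidney, and 16 in brain and in liver. With LPS, 5 rose and 9 fell in heart and likewise in kidney, 7 and 6 in liver, and 2 and 8 in brain, where the share of all genes that fell was 29.1% in heart, 39.2% in kidney, 37.2% in liver and 17.6% in brain. Their summed intensity in kidney was 50825 to 52302 in mock, 61557 to 65866 with LPS and 55911 to 57357 with LPS+genipin. Rasip1 and Robo4, 2 of the 5 that rose there, weigh heavily in this sum. Rasip1 read 2652, 3024 and 2964 in mock and 10142, 10661.1 and 9908 with LPS. Robo4 read 5291, 4041 and 4783 in mock and 14797, 12130 and 11132 with LPS. In kidney 9 of the 18 markers fell although the sum was higher, beside 39.2% of all genes, and endothelial content was not tested. In heart it was 102004 to 107354 in mock, 96484 to 99233 with LPS and 102353 to 106870.0 with LPS+genipin, and in liver 19689 to 20179, 21139 to 22577 and 18793 to 19790.3. In brain it was 28521 to 28870.2 in mock, 26007 to 26293 with LPS and 29603 to 30035 with LPS+genipin. Pecam1, a junction marker of all endothelium, fell with LPS in brain by -0.18 ± 0.06 (limma adjusted p = 0.0390) and differed by -0.06 ± 0.07 in heart (0.522), by -0.0037 ± 0.07 in kidney (0.977) and by 0.13 ± 0.13 in liver (0.402). Their median LPS difference was -0.25 in heart, -0.21 in kidney, 0.06 in liver and -0.11 in brain. Markers of the liver sinusoid, whose endothelium is specialised for scavenging, were an exception. Of 7, 6 fell and 1 rose, with sums of 38233 to 39338 in mock, 23582 to 25178 with LPS and 24714 to 26264 with LPS+genipin. Their part in the liver values of Kdr, Tek and Ptprb was not tested.

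**Figure D5:**
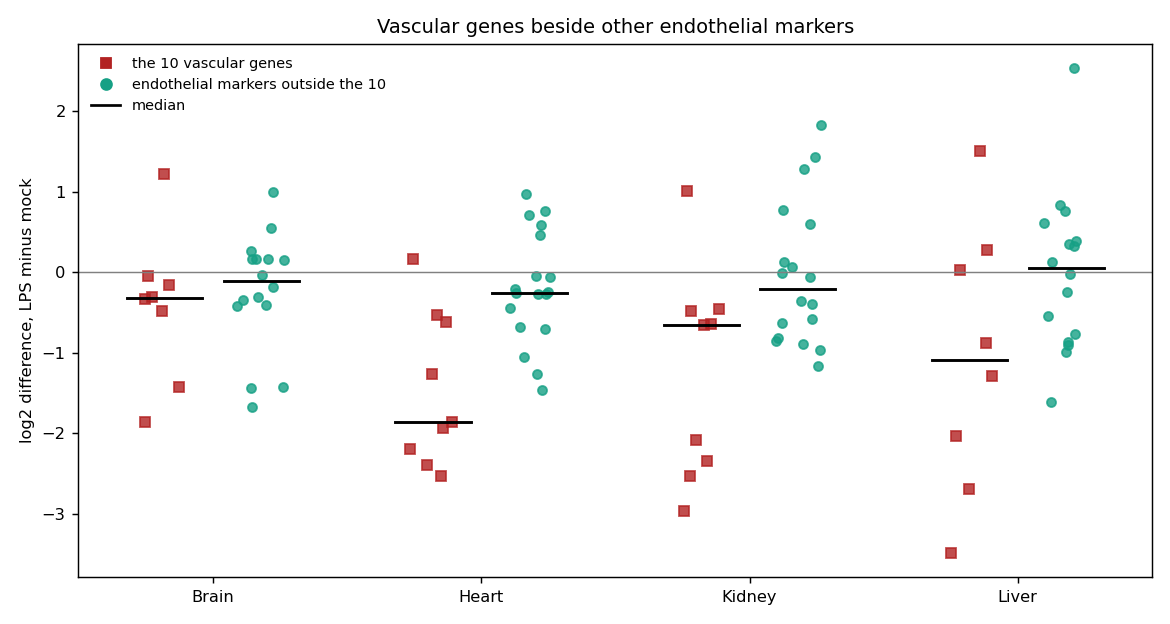
Log2 difference of LPS against mock in each tissue for the measured genes among the 10 (squares, with the liver value of Pcdh12 at its bound) and for endothelial markers outside the 10 (circles), with a line at each median. The markers spread around 0 with medians from -0.25 to 0.06, and the 10 genes, which were chosen on this difference, have medians from -1.86 to -0.32.

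Genes whose pattern was most like that of Tek were sought by the root mean square distance of their 8 differences from mock, LPS and LPS+genipin in 4 tissues, among 6705 genes. Rasgrp3, which encodes an exchange factor for Ras-family proteins, was nearest at 0.36, followed by Banp (0.56), Mkks (0.71), the chemokine gene Cxcl12 (0.78) and Atad3aos (0.78). Rasgrp3 differed from mock with LPS by -2.42 in kidney, -1.93 in heart, -1.52 in brain and -1.31 in liver, and with LPS+genipin by -0.92, -0.83, -0.75 and -0.65. Ptprb lay at 0.66, between Banp and Mkks, while Kdr lay at 1.06, Egfl7 at 1.09, Flt1 at 1.43, Tie1 at 1.45 and Cdh5 at 2.45. These distances describe group means of the same arrays.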

How the data were processed

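RNA of 4 tissues from mock, LPS and LPS+genipin mice was measured on 36 one-colour (Cy5) arrays, 3 for each of 12 groups. The intensity values are linear, as deposited by the authors, and limma is among the tools in the submitters' processing notes. Background correction, scanner software and probe filter are not named in the sources used here. The sorted values of the arrays of a tissue were nearly identical, as after quantile normalization within it, and levels were compared only within a tissue. The members and lists were chosen with earlier results of these data known.

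Of 18183 probes, 12468 carried a current symbol, 2318 an older one that was updated and 31 a symbol kept as given, while 3366 had none. A gene was read from its brightest probe (2079 genes have several). Intensities below 263, the 5th percentile, were raised to it, values of 60000 or more were treated as saturated, and log2 values of the 9 arrays of a tissue were fitted by treatment with limma 3.58.1 in R 4.3.3. Tests are two-sided, with Benjamini-Hochberg adjustment over the genes of a tissue and a threshold of 0.05. The F test across tissues used all 36 arrays. The code was tested on simulated data. Plots were drawn with matplotlib 3.10.9 and tables joined with pandas 2.3.3 (numpy 2.4.6) under Python 3.11.15. Other pathway genes were named when called with a log2 difference of at least 1, at most 6 per tissue and comparison by size, and the ligands Angpt1, Angpt2, Vegfa and Pgf always. Alternatives were no floor, a floor at the 10th percentile, a filter on 3 arrays above the floor, the mean of all probes, arrays centred on the median, an intensity-trended robust prior, a fit of only the groups compared, the replicate number as a block, and each array left out. By the correlation of deviations from group means, the 3 same-numbered pairs of LPS and LPS+genipin brains gave 0.144, 0.192 and 0.180, all over 0.1. No other groups had all 3 such pairs over 0.1. Brain arrays with different numbers reached 0.305, so this is at most a weak hint of pairing, which no label states. The number of arrays limits the precision.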

Additional observations from a re-analysis of the deposited data

Results flagged for a closer look

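The difference between LPS+genipin and LPS varied among brain, heart, kidney and liver for each of the 7 genes measured in all of them, by limma's F test over 36 arrays. The adjusted p was 3.72e-08 for Tek, 1.70e-09 for Tie1, 4.63e-11 for Kdr, 9.30e-05 for Flt1, 3.92e-11 for Ptprb, 6.83e-10 for Egfl7 and 2.58e-07 for Cdh5, where 74.5% of 6705 genes passed the same test. Tie1 differed from mock with LPS in opposite directions, with every liver array higher (0.27) and every brain (-0.31), heart (-0.53) and kidney (-0.65) array lower. That difference between tissues was not tested. Against LPS, Tie1 arrays with genipin were all higher in heart (0.53) and kidney (0.52) and all lower in liver (-0.44). Flt1 arrays were likewise all higher in heart (0.37) and kidney (0.19) and all lower in liver (-0.25).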

How the results depend on the processing

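Of the 26 calls of the 10 genes with genipin against LPS, 24 held under all 17 alternatives run for each, and the exceptions were Egfl7 in brain (adjusted p up to 0.0871) and Flt1 in liver (up to 0.0795). With all probes of a gene averaged, which brings in the second Pcdh12 probe, the heart median moved to -1.26 for LPS against mock, 0.69 for LPS+genipin against LPS and -0.50 for LPS+genipin against mock, the liver medians of both comparisons with mock to -0.74 and -0.68, and Pcdh12 in liver reversed to -0.022 with genipin (adjusted p = 0.798). Without a floor the liver medians were -1.46 for LPS against mock and 0.61 for genipin against LPS, and a floor at the 10th percentile gave -0.90. Leaving out 1 array at a time gave heart medians of -1.96 to -1.79 for LPS and 1.01 to 1.19 for genipin against LPS, and kidney medians of -0.46 to -0.31 for LPS+genipin against mock. It also turned the sign of small genipin differences that had not passed, which ranged from -0.21 to 0.0068 for Hey1 in brain, from -0.0015 to 0.16 for Tie1 in brain, from -0.014 to 0.14 for Cdh5 in heart, and from -0.081 to 0.054 for Angpt2 in liver. The cause of these moves was not tested. Same-numbered arrays correlated over 0.1 in 5 of 9 pairs in brain and 1 of 9 in each other tissue. Pairs with different numbers ranged from -0.297 to 0.305 in brain, -0.306 to 0.587 in heart, -0.322 to 0.296 in kidney and -0.283 to 0.595 in liver. LPS+genipin replicate 1 with LPS replicate 3 gave 0.587 in heart and 0.595 in liver. LPS+genipin replicate 3 with LPS replicate 1 gave 0.547 and 0.477. What such arrays share was not tested, and none of the alternatives accounts for it. With the replicate number as a block, Flt1 in liver (-0.25) had an adjusted p of 0.0596 and Vegfa in brain (0.42) one of 0.0499, and no other call described here changed. The count of other pathway genes lower with genipin against LPS in brain was 7 in place of 11 with the 10th-percentile floor and with only the groups compared, and that fit gave 9 in place of 4 for LPS+genipin against mock. Values near the floor, such as Tie1 in brain and Pcdh12 and Kdr in the LPS livers, carry the least information.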
